A study of Homo sapiens with 6 samples.

Results

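Glycolysis is the cytosolic pathway that splits glucose into pyruvate, and 31 genes of that pathway and of the handling of lactate and pyruvate were followed here, of 58735 genes in the deposited table. They were chosen by name, as the glucose transporters, the enzymes of each step, the enzymes that set the level of fructose 2,6-bisphosphate, the lactate dehydrogenases and lactate transporters, and the pyruvate dehydrogenase subunits and kinases. All 31 were found in the table under those names.

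The cells were MDA-MB-231, an established line of triple-negative breast cancer (lacking estrogen receptor, progesterone receptor and HER2 amplification), wild type in both groups and grown in high-glucose DMEM with serum. They were stained with PKH26, a membrane dye that is diluted at each division, and cultured for 12 days. The slow-cycling cells (SCC, PKH26hi) were the brightest 1% of the sort, and the rapid-cycling cells (RCC) came from the gate called moderate in the protocol and PKH26lo in the sample labels, so RCC are the comparison group and not an unstained population. Bulk RNA-seq libraries of total RNA were made from 3 biological replicates of each group, without a statement of whether these came from separate cultures or sorts; p-values therefore measure the spread between these libraries. One cell line and 1 chase time limit both groups as a model of dormancy. The SCC libraries held 19498054 to 27831824 assigned counts, and the RCC libraries 17655855 to 22746267.

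Glucose enters through GLUT transporters and is phosphorylated by hexokinase. Phosphofructokinase is the main committed step and is stimulated by fructose 2,6-bisphosphate, and the later steps yield ATP, NADH and pyruvate. Tumor cells often reduce much of the pyruvate to lactate even with oxygen, and export it. Pyruvate that enters mitochondria is oxidized by the pyruvate dehydrogenase complex, which its kinases switch off and its phosphatases switch on.

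Many promoters of this pathway carry short sites read by hypoxia-inducible factors or by E-box factors such as MYC. The bases ACGTG or GCGTG, on either strand, were found within the 250 bases upstream of the RefSeq start (GRCh38.p14) in 57.1% of the 56 windows available for 28 of the genes, beside 43.2% of 35116 windows of all genes. The overlapping E-box CACGTG was in 14.3% beside 6.34%. Some genes, such as HK1 and PFKM, gave several windows that partly or almost wholly overlap, so windows are not independent. Of the 2 LDHA windows, the one from 18394313 to 18394562 on chromosome 11 held 3 separate sites, starting 185, 87 and 73 bases before the start, of which 2 were E-boxes. The other, from 18396101 to 18396350, held 1 site, 123 bases before the start, and 0 E-boxes. The single LDHB window held none. The LDHB window is printed because LDHB had the largest lower value among the genes, and 1 window of PFKFB3, a gene with higher values in SCC, stands beside it. The pair was picked by these values, and a link between sites and direction was not tested. Among other genes higher in every SCC library, SLC2A1, PGAM1 and PKM had no site in their windows. PFKL, PFKFB4, ALDOC, ENO1 and ENO2, also higher in every SCC library, had at least 1. HK1, likewise higher, had a site in only 1 of its several windows, and SLC2A3 and SLC16A1 had no window. Both printed windows read 5′ to 3′ on the gene's strand and capitals mark the matched bases. A match is a description of letters and not a bound site.
LDHB, chr12:21657843-21658092, minus strand: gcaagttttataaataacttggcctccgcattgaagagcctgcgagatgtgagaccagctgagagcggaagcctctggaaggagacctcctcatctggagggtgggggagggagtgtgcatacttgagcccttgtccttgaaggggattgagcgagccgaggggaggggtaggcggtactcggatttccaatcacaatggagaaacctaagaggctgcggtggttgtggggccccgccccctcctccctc
PFKFB3, chr10:6144671-6144920, plus strand: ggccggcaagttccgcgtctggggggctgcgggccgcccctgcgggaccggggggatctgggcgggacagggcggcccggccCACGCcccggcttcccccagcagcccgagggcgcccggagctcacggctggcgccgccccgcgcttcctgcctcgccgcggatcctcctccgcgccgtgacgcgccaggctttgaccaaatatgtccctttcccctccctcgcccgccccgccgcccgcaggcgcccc

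None of the glycolysis and lactate genes passed the test between SCC and RCC, and more of them had higher than lower values in SCC. In edgeR's quasi-likelihood test with Benjamini-Hochberg adjustment over 15881 genes, 0 of the 31 were called higher and 0 lower at an adjusted p under 0.05, where 1.69% of all tested genes were called higher and 0.378% lower. For 31 genes, 0 calls are close to these shares, and a gene that was not called is not thereby shown to be level. The smallest adjusted p among the 31 was 0.0694, for SLC2A3. At an unadjusted p under 0.05, 8 genes were higher (25.8%, beside 11.4% of all genes) and LDHB alone was lower (3.23%, beside 8.27%). The median log2 fold change, SCC over RCC, was 0.09 for the 31 genes and 0.00 for all tested genes, whose quartiles were -0.14 and 0.18; 22 of the 31 values were positive, beside 50.5% of all genes.

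The intervals of the fit give the range of differences left for each gene. For 26 of the 31 genes the 95% interval of the fold change, not adjusted for the number of genes, lay within 1.5-fold either way (83.9%, beside 61.8% of all genes). The exceptions were TIGAR, ALDOA, LDHB, SLC16A1 and PDK2. The width of an interval also depends on a gene's counts, and these shares were not matched for expression level. Among the exceptions, SLC16A1 had 4 to 22 counts per library and TIGAR 25 to 48. Without adjustment by any model, 12 genes had every SCC library above every RCC library (38.7%, beside 14.4% of all genes) and 2 had every SCC library below (6.45%, beside 13.4%).

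**Figure D1:**
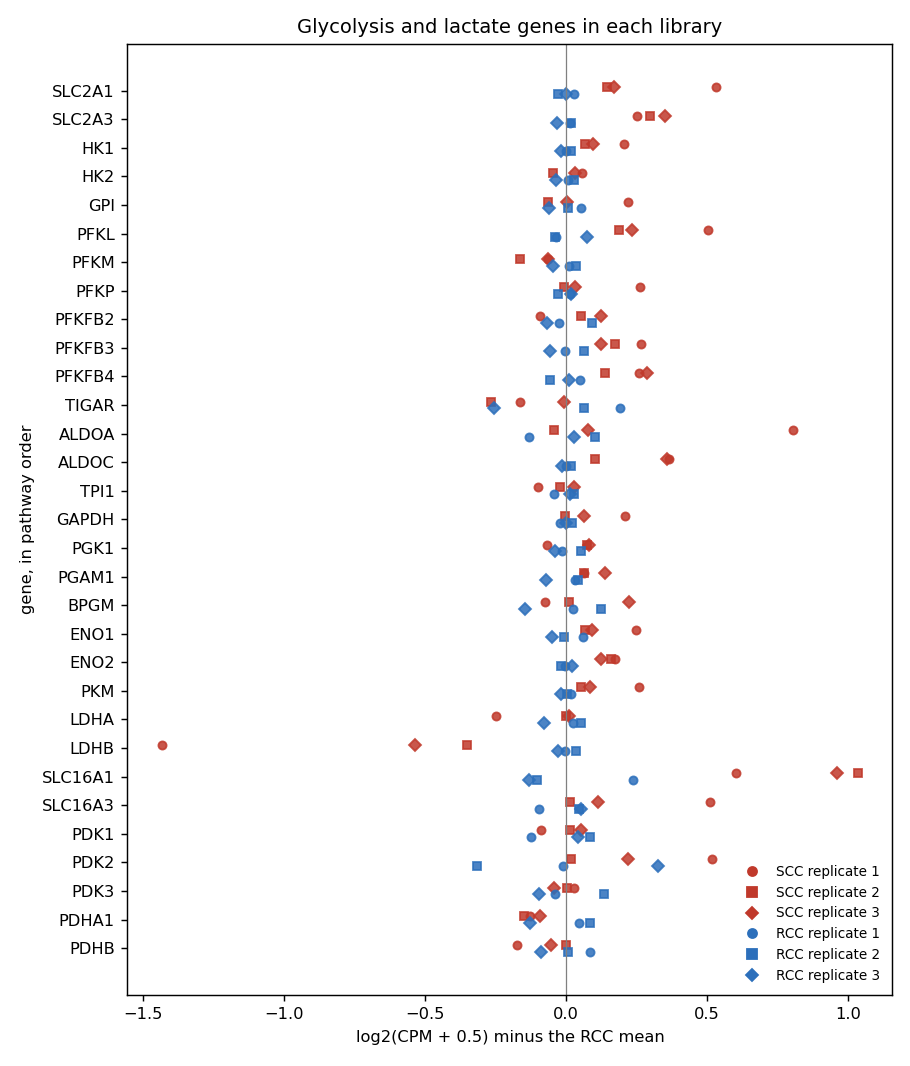
Level of each gene in each library as log2(CPM + 0.5) minus the RCC mean (x axis, log2 units), with genes in pathway order (y axis), SCC in red and RCC in blue. Most points lie near 0; LDHB lies to the left in all 3 SCC libraries, farthest in replicate 1, and SLC16A1 lies to the right.

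A dependence on GC content, strongest in 1 library, touches many of these genes. In SCC replicate 1, a gene's difference from the RCC mean went with the GC content of its transcripts, with a Pearson r of 0.62 over the 31 genes and 0.60 over all tested genes. The same values were 0.04 and 0.10 in SCC replicate 2, and 0.12 and 0.25 in SCC replicate 3. The 14 genes with a GC content of at least 55% had a median log2 difference of 0.26 in SCC replicate 1, 0.03 in replicate 2 and 0.12 in replicate 3, while the 8 genes under 45% had -0.08, 0.01 and 0.03. These are correlations across genes, which are not independent replicates, and the cause of the dependence was not tested. When each library's dependence on GC content was fitted and removed, a correction added once the data had been seen, the median log2 fold change of the 14 GC-rich genes went from 0.21 to 0.05 and that of all 31 from 0.09 to 0.05. In that fit SLC2A3 and SLC16A1 were called higher and LDHB lower, with values near those without the correction (0.34, 1.67 and -0.66), while GPI, PFKP, GAPDH and SLC16A3 went from positive to between -0.07 and -0.03. Without that library 4 genes were called higher (SLC2A1, SLC2A3, PFKL and SLC16A1) and LDHB was called lower, in a fit that called 3.93% of all genes higher and 2.10% lower. The median of the 31 genes was then 0.07.

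**Figure D2:**
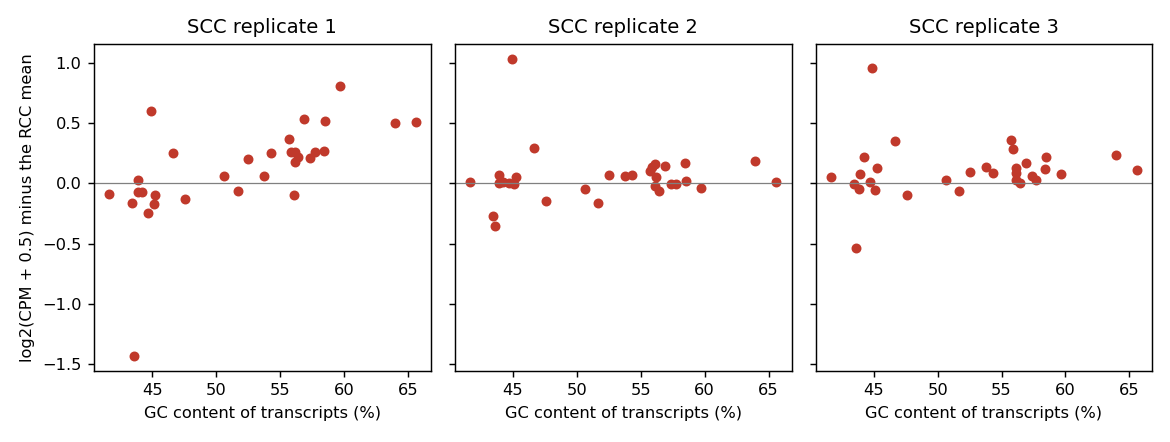
GC content of each gene's transcripts (x axis, percent) against its level in 1 SCC library as log2(CPM + 0.5) minus the RCC mean (y axis, log2 units), 1 panel for each SCC library and 1 point for each of the 31 genes. Values climb with GC content in replicate 1 (r of 0.62) and not visibly in replicates 2 and 3 (0.04 and 0.12).

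Both glucose transporters had higher values in every SCC library. SLC2A1 (chromosome 1, 42925375 to 42959176) encodes GLUT1, the widespread basal glucose transporter. Its depth-scaled counts (CPM, with TMM library sizes) were 344, 263 and 268 in SCC replicates 1 to 3 and 242, 233 and 238 in RCC. The groups did not overlap, and SCC replicate 1 lay well above the other SCC libraries. The log2 fold change was 0.29 (SE 0.097, n = 3 per group, edgeR adjusted p = 0.144), 0.16 (SE 0.045, adjusted p = 0.0321) without SCC replicate 1 and 0.17 (adjusted p = 0.0651) with the GC correction. SLC2A3 (chromosome 12, 7919230 to 7936275) encodes GLUT3, a high-affinity transporter. It read 45.4, 46.8 and 48.6 CPM in SCC against 38.5, 38.5 and 37.2 in RCC, with the 3 SCC libraries close together and all above RCC. Its log2 fold change was 0.30 (SE 0.075, edgeR adjusted p = 0.0694), and 0.33 (adjusted p = 0.00472) without SCC replicate 1. Per length SLC2A1 was the more abundant, at a mean of 55.7 FPKM (fragments per kilobase of gene, scaled to library depth) over the 6 libraries beside 6.87 for SLC2A3.

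The enzymes that trap and isomerize glucose were nearly level. HK1, the housekeeping hexokinase, read 304, 277 and 282 CPM in SCC and 264, 267 and 261 in RCC, without overlap but with a log2 fold change of only 0.12 (95% interval -0.02 to 0.26). HK2, the inducible hexokinase of many tumors, read 153, 143 and 151 CPM in SCC and 148, 150 and 144 in RCC, fully mixed between groups. Its log2 fold change was 0.01, with an interval of -0.13 to 0.16. GPI, which converts glucose 6-phosphate to fructose 6-phosphate, read 453, 373 and 390 CPM in SCC and 404, 391 and 374 in RCC, where only SCC replicate 1 stood out.

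Phosphofructokinase is built from liver, muscle and platelet subunits, whose values differed from one another. PFKL, the liver-type subunit (chromosome 21, 44300051 to 44327376), read 187, 150 and 155 CPM in SCC and 128, 128 and 139 in RCC. All SCC libraries lay above all RCC libraries, and SCC replicate 1 was the highest. The log2 fold change was 0.32 (SE 0.089, edgeR adjusted p = 0.0973), and 0.21 (adjusted p = 0.00971) without that library. PFKL is GC-rich (64.0%), and with the GC correction its value was 0.06 (edgeR adjusted p = 0.522). PFKM, the muscle type, read 128, 120 and 128 CPM in SCC and 135, 137 and 130 in RCC, lower in every SCC library by a small margin (log2 fold change -0.10, interval -0.24 to 0.05). PFKP, the platelet type and the most abundant per length at 88.6 FPKM, read 499, 414 and 425 CPM in SCC and 419, 408 and 421 in RCC, and the groups overlapped. PFKP made up 72.2% ± 0.635 (SD, n = 3) of the summed FPKM of the 3 subunits in SCC and 72.2% ± 0.383 in RCC.

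Of the enzymes that make or remove fructose 2,6-bisphosphate, PFKFB3 and PFKFB4 had somewhat higher values in SCC. PFKFB3, the isoform with the strongest kinase activity, read 112, 105 and 102 CPM in SCC and 92.8, 97.4 and 89.4 in RCC, with no overlap (log2 fold change 0.19, SE 0.071, edgeR adjusted p = 0.188). PFKFB4, a related bifunctional enzyme, read 29.1, 26.7 and 29.6 CPM in SCC and 25.1, 23.3 and 24.4 in RCC, again with no overlap (0.23, SE 0.088, adjusted p = 0.189 by edgeR). With the GC correction PFKFB3 was at 0.05 (edgeR adjusted p = 0.703) and PFKFB4 at 0.13 (adjusted p = 0.358). PFKFB2 read 20.7 to 24.1 CPM in SCC and 21.1 to 23.6 in RCC, and its groups overlapped. TIGAR, a p53 target that lowers fructose 2,6-bisphosphate, was barely detected, at 1.38 to 1.76 CPM in SCC and 1.40 to 2.09 in RCC. Its interval was wide (-0.79 to 0.37 in log2), so a moderate difference was not detectable at this depth. TIGAR shares 45.6% of its exon bases with other annotated genes, and how reads in shared exons were assigned is not given in the sources used here.

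The enzymes from aldolase to pyruvate kinase include the most abundant transcripts of the pathway, with means over the 6 libraries of 1024 FPKM for GAPDH, 632 for ENO1, 369 for TPI1, 352 for PGAM1 and 300 for PKM. GAPDH, the NADH-forming dehydrogenase often used as a reference gene, read 3431, 2965 and 3103 CPM in SCC and 2927, 3015 and 2973 in RCC. The groups overlapped and only SCC replicate 1 stood apart (log2 fold change 0.09, interval -0.06 to 0.24). ENO1, the main enolase, read 3791, 3344 and 3395 CPM in SCC and 3321, 3176 and 3078 in RCC, a gap between groups that is small beside the height of SCC replicate 1 (0.14, interval -0.01 to 0.29). PKM, which makes pyruvate, read 2947, 2551 and 2612 CPM in SCC and 2492, 2467 and 2429 in RCC (0.13, interval -0.01 to 0.28). TPI1, which interconverts the triose phosphates, read 943, 995 and 1032 CPM in SCC and 982, 1032 and 1020 in RCC and was level. PGK1, the first ATP-forming enzyme, read 621 to 689 CPM in SCC against 634 to 676 in RCC. PGAM1, which moves the phosphate group, read 922 to 970 CPM in SCC against 838 to 907 in RCC, just without overlap. BPGM, which makes 2,3-bisphosphoglycerate, read 15.2 to 18.8 CPM in SCC against 14.4 to 17.5 in RCC.

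The isozymes ALDOC and ENO2 of these steps had higher values in every SCC library. ALDOC, the brain-type aldolase (chromosome 17, 28573115 to 28577264), read 51.5, 42.9 and 51.2 CPM in SCC and 39.8, 40.3 and 39.5 in RCC. The RCC libraries were tightly grouped, and SCC replicate 2 lay closest to them. Its log2 fold change was 0.28 (SE 0.089, edgeR adjusted p = 0.128). ENO2, the neuron-type enolase, read 151, 150 and 146 CPM in SCC and 134, 132 and 136 in RCC (0.15, SE 0.061, edgeR adjusted p = 0.208). With the GC correction ALDOC was at 0.19 (edgeR adjusted p = 0.125) and ENO2 at 0.05 (adjusted p = 0.614). ALDOA, the main aldolase of most cells, read only 17.6, 9.56 and 10.4 CPM in SCC and 8.95, 10.6 and 10.1 in RCC, level apart from SCC replicate 1. ALDOA shares 53.5% of its exon bases with other genes, 42.3% with AC093512.2 on the same strand, so its level and any difference are uncertain. As counted, ALDOC made up a mean of 84.1% of the summed FPKM of ALDOA and ALDOC in SCC and 84.4% in RCC. That share carries the same uncertainty.

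**Figure D3:**
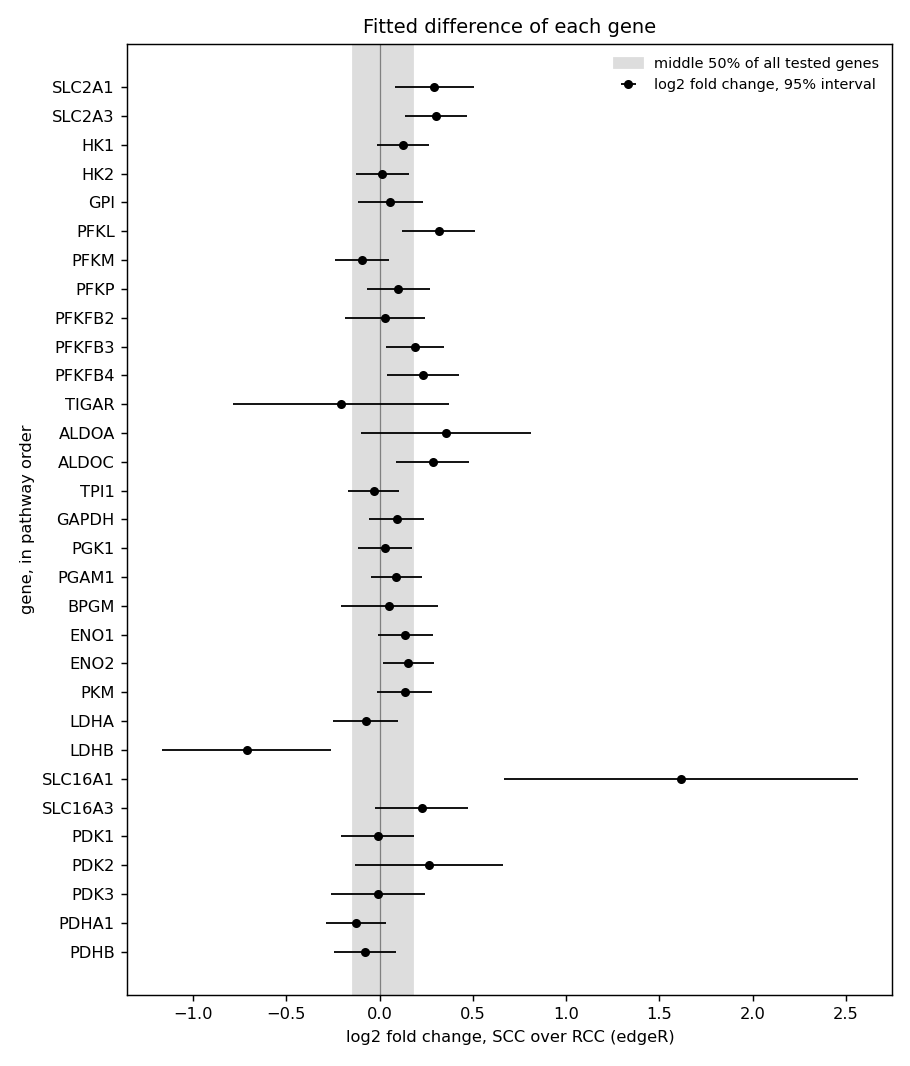
Fitted log2 fold change of each gene, SCC over RCC (x axis), in pathway order (y axis); points are edgeR estimates, bars are 95% intervals, and the grey band spans the quartiles of all tested genes, -0.14 to 0.18. The intervals of LDHB (-1.17 to -0.26) and SLC16A1 (0.67 to 2.56) reach farthest from 0.

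At the lactate end, LDHB and SLC16A1 had the most extreme values of the 31 genes, in opposite directions. LDHA, whose subunit favors the reduction of pyruvate to lactate, read 1559, 1851 and 1864 CPM in SCC and 1884, 1920 and 1753 in RCC. Only SCC replicate 1 was low (log2 fold change -0.08, interval -0.25 to 0.10). LDHB (chromosome 12, 21635342 to 21757857), whose subunit favors the oxidation of lactate, read 34.4, 73.3 and 64.5 CPM in SCC and 93.5, 96.0 and 91.8 in RCC. All SCC libraries lay below the tight RCC range, and SCC replicate 1 was far the lowest. The log2 fold change of LDHB was -0.71 (SE 0.206, unadjusted p = 0.00528, edgeR adjusted p = 0.105). The spread among the SCC libraries was wide: without SCC replicate 1 the value was smaller, -0.44, and passed the test (edgeR adjusted p = 1.26e-05), and without SCC replicate 2 it was -0.94 (adjusted p = 0.0179). LDHB shares 33.4% of its exon bases with AC010197.2 on the same strand, a gene with 3 counts in all 6 libraries together. How reads in shared exons were assigned is not given in the sources used here. The level of LDHB is therefore uncertain, and the effect of the overlap on its difference was not tested. In bulk libraries, fewer cells carrying a transcript and less of it per cell cannot be told apart.

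The balance of the dehydrogenases followed from these values, and its level carries the uncertainty in LDHB from shared exons. LDHA made up 95.6%, 92.4% and 93.3% of the summed LDHA and LDHB FPKM in SCC and 90.6%, 90.6% and 90.2% in RCC, so that the FPKM ratio of LDHA to LDHB was 21.8, 12.1 and 13.9 in SCC and 9.68, 9.61 and 9.17 in RCC. The share was higher in 3 of 3 SCC libraries by 3.29 percentage points. An exact two-sided permutation test over libraries gave p = 0.1, the smallest that 3 against 3 allows, and 0.3 after Benjamini-Hochberg adjustment over the 9 isozyme families compared.

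SLC16A1 (chromosome 1, 112911847 to 112957013) encodes MCT1, a monocarboxylate transporter that carries lactate in either direction. It was almost absent: 19, 22 and 22 counts in SCC and 10, 5 and 4 in RCC, or 0.70, 1.13 and 1.04 CPM against 0.43, 0.24 and 0.22. Every SCC library was above every RCC library. The log2 fold change was 1.62 (SE 0.430, edgeR adjusted p = 0.0852), resting on few counts, and 1.81 (adjusted p = 0.0451) without SCC replicate 1. SLC16A3, which encodes the lactate exporter MCT4, was the more abundant at 55.7 FPKM beside 0.118 for SLC16A1. It read 661, 468 and 502 CPM in SCC and 434, 479 and 481 in RCC, where SCC replicate 1 alone was high. SLC16A3 has the highest GC content of the 31 genes, 65.6%, and its log2 fold change of 0.23 (interval -0.02 to 0.48) was 0.06 without that library and -0.07 with the GC correction. SLC16A7 (MCT2), SLC16A8 (MCT3) and BSG, the chaperone that brings MCT1 and MCT4 to the membrane, were taken up after their values were seen. SLC16A7, at 2.90 FPKM, read 31.9, 36.5 and 36.9 CPM in SCC and 42.5, 44.7 and 46.4 in RCC, lower in every SCC library (-0.34, SE 0.087, edgeR adjusted p = 0.0731). SLC16A8, at 0.486 FPKM, had a value of 0.85 (SE 0.336, edgeR adjusted p = 0.201). BSG read 1174, 942 and 972 CPM in SCC and 792, 823 and 828 in RCC, without overlap (0.34, SE 0.083, edgeR adjusted p = 0.0694). Without SCC replicate 1, the highest, BSG was at 0.23 (edgeR adjusted p = 0.00100).

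**Figure D4:**
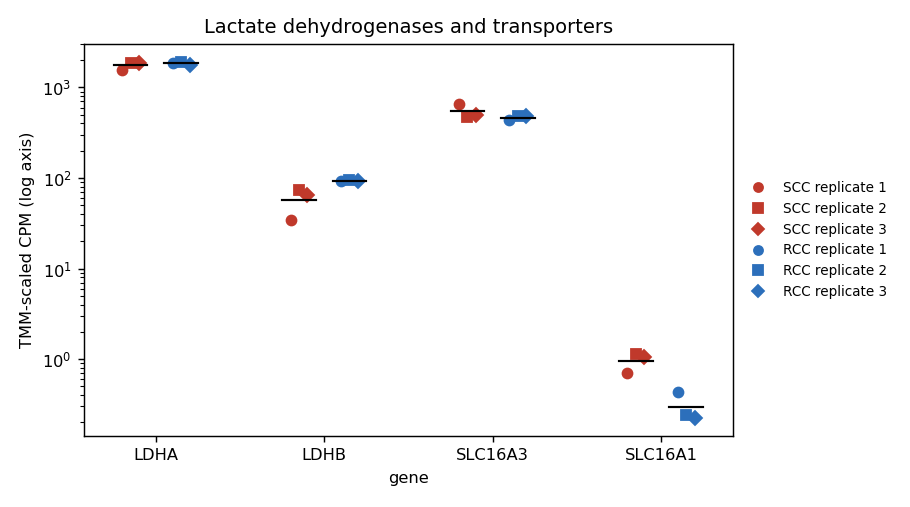
TMM-scaled CPM on a log axis (y axis) of LDHA, LDHB, SLC16A3 and SLC16A1 (x axis) in each library, SCC in red and RCC in blue, with black bars at the group means. LDHB lies between 34.4 and 73.3 in SCC and between 91.8 and 96.0 in RCC; SLC16A1 lies near 1 CPM or below in all libraries.

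Among the other isozyme families, HK2 made up 34.4%, 34.9% and 35.7% of the hexokinase FPKM (HK1 and HK2) in SCC and 36.9%, 36.9% and 36.4% in RCC, lower in 3 of 3 SCC libraries by a difference of -1.73 percentage points. SLC16A3 made up 99.8%, 99.6% and 99.6% of the FPKM of the 2 transporters in SCC and 99.8%, 99.9% and 99.9% in RCC, a difference of -0.20. Both had an exact permutation p of 0.1 and an adjusted p of 0.3. In the other 6 families the groups overlapped. The 31 genes together took 1.67% ± 0.040 (SD, n = 3) of all assigned counts in SCC and 1.61% ± 0.022 in RCC, a difference of 0.063 percentage points.

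The genes at the entry of pyruvate to mitochondria were level among the 31, but a kinase and a phosphatase outside them changed. PDHA1 and PDHB encode the subunits of the first enzyme of the pyruvate dehydrogenase complex. PDHA1 read 105, 104 and 108 CPM in SCC and 119, 122 and 105 in RCC (log2 fold change -0.13, interval -0.29 to 0.04), and PDHB read 95.4, 108 and 104 against 114, 108 and 101. Of the kinases that inactivate the complex, PDK1 read 33.1 to 36.6 CPM in SCC against 32.3 to 37.4 in RCC, and PDK3 10.6 to 11.1 against 10.2 to 12.0. PDK2 spread wider, over 10.8 to 15.5 CPM in SCC and 8.46 to 13.5 in RCC. All 3 kinases overlapped between the groups. PDHA1 shares 21.3% of its exon bases with MAP3K15 and PDK2 38.6% with SAMD14, both on the opposite strand, and whether counting used strand is not given in the sources used here.

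Of 48 further genes of glycolysis and pyruvate handling, 28 were tested, and 1 was called higher and 1 lower. Over all tested genes, 1.69% were called higher and 0.378% lower. By unadjusted p under 0.05, 5 of the 28 were higher and 6 lower, beside 11.4% and 8.27% of all genes. The median log2 fold change of the 28 was -0.02. PDK4, the kinase isoform known for its induction in fasting, rose in SCC. It read 9.24, 8.33 and 11.7 CPM in SCC and 3.22, 2.92 and 3.02 in RCC, far apart and without overlap (log2 fold change 1.67, SE 0.169, edgeR adjusted p = 3.7e-04). Of 22 alternative analyses, only limma on log2(FPKM + 1) without a filter did not call PDK4 (0.90, adjusted p = 0.0948). PDK4 averaged 1.41 FPKM, beside 2.35 for PDK1, 2.15 for PDK2 and 2.19 for PDK3. PDP2, a phosphatase that reactivates the complex, fell in SCC. It read 27.2, 28.0 and 29.6 CPM in SCC and 41.2, 37.6 and 39.5 in RCC (-0.48, SE 0.083, edgeR adjusted p = 0.0132). It missed the threshold when any 1 RCC library was left out (edgeR adjusted p = 0.112, 0.0601 and 0.0830 without RCC replicates 1, 2 and 3). In those fits its value was -0.46, -0.52 and -0.49, and 99 to 103 of all genes were called higher and 8 to 14 lower, beside 268 and 60 with every library. PDP2 also missed the threshold in 2 further analyses, glmTreat against a fold of 1.2 and limma without a filter. The other phosphatase, PDP1, taken up after its values were seen, was at -0.04 (edgeR adjusted p = 0.780). PDP1 averaged 6.81 FPKM, beside 4.03 for PDP2. Other complex subunits, taken up after their values were seen, had lower values that did not pass: -0.21 for PDHX (adjusted p = 0.194 by edgeR), -0.17 for DLAT (0.226) and -0.15 for DLD (0.250).

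**Figure D5:**
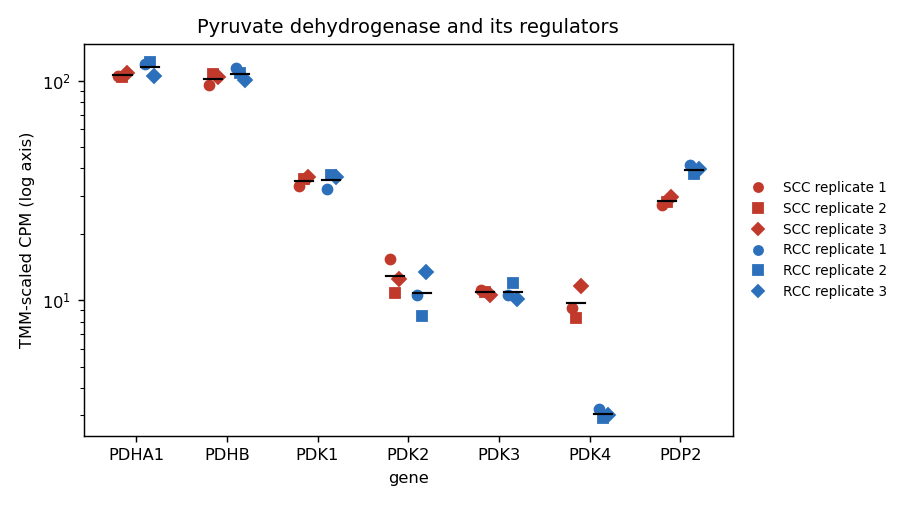
TMM-scaled CPM on a log axis (y axis) of the pyruvate dehydrogenase subunits PDHA1 and PDHB, the kinases PDK1 to PDK4 and the phosphatase PDP2 (x axis) in each library, SCC in red and RCC in blue, black bars at the group means. PDK4 lies between 8.33 and 11.7 in SCC and between 2.92 and 3.22 in RCC, PDP2 is lower in all SCC libraries, and the groups of the other kinases overlap.

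In the pathways that branch from glycolysis or follow it no gene was called, which for lists of this size is close to the shares of all genes. Of 34 genes of the pentose phosphate, hexosamine, glycogen, serine and related branches, 33 were tested and 0 were called either way by edgeR. Over all tested genes, 1.69% were called higher and 0.378% lower. Unadjusted p was under 0.05 for 4 higher and 4 lower, beside 11.4% and 8.27% of all genes. PYGB, a glycogen phosphorylase, had a log2 fold change of 0.27 (edgeR adjusted p = 0.0868). All 28 genes of the tricarboxylic acid cycle were tested, and 0 were called either way. Against the same shares of all genes, unadjusted p was under 0.05 for 0 higher and 2 lower. Those were SUCLG1 at -0.23 (edgeR adjusted p = 0.159) and FH at -0.20 (adjusted p = 0.212), a synthetase subunit and the fumarase of the cycle.

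Of 34 regulators of glycolysis genes 32 were tested, and 4 rose (1.69% of all genes were called higher) and 0 fell (0.378% lower). By unadjusted p under 0.05, 8 were higher and 3 lower, beside 11.4% and 8.27% of all genes, and the regulators' median log2 fold change was 0.10. TXNIP, an arrestin that restrains glucose uptake through GLUT1, read 107, 124 and 113 CPM in SCC and 65.6, 63.6 and 61.9 in RCC, with a wide gap between groups (0.85, SE 0.076, edgeR adjusted p = 1.7e-04). KLF4, a zinc finger factor linked to growth arrest, read 48.2, 43.0 and 40.0 CPM in SCC and 23.0, 24.2 and 24.4 in RCC (0.87, SE 0.092, edgeR adjusted p = 4.7e-04). BHLHE40, a hypoxia-inducible repressor, had a log2 fold change of 0.44 (edgeR adjusted p = 0.0147), and EPAS1, which encodes HIF-2α, 0.40 (adjusted p = 0.0329). The other genes of the hypoxia-inducible factor system in the list were not called. HIF1A was at -0.06, ARNT at -0.11, ARNT2 at 0.18, HIF1AN at -0.07, VHL at -0.09, EGLN1 at 0.11 and EGLN3 at 0.01. EGLN2, at 0.899 FPKM, was at -0.74 (SE 0.189, edgeR adjusted p = 0.0751), and HIF3A was not tested. The 3 lower by unadjusted p were EGLN2, SP1 (-0.24) and PRKAA1 (-0.24). Higher by unadjusted p but not called were MYC at 0.27 (edgeR adjusted p = 0.105), MLXIP at 0.27, USF2 at 0.23 and BHLHE41 at 0.72. Of the 22 alternative analyses, TXNIP and KLF4 were called in all, BHLHE40 in 17 and EPAS1 in 14.

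The libraries carried the markers of the line. VIM, CD44, AXL, MSN, CAV1 and S100A4, mesenchymal and basal markers, had means of 35.1 to 189 FPKM, and ESR1, PGR, CDH1, GATA3, EPCAM and FOXA1, markers of luminal or epithelial cells, 0.0014 to 2.40. The summed FPKM of 4 leukocyte markers (PTPRC, CD3E, CD14 and LYZ) was 0.217 to 0.764 in SCC and 0.133 to 0.246 in RCC, that of 3 endothelial markers 0.436 to 0.469 and 0.410 to 0.496, and that of 4 fibroblast markers 1.22 to 1.64 and 0.913 to 1.198. None of these 11 was at 0 in every library, and their part in the differences above was not tested. Single markers differed: S100A4 (0.38), FOXA1 (0.45) and COL1A1 (0.50) were higher in every SCC library (edgeR adjusted p = 0.0507, 0.155 and 0.124). COL3A1, not tested, was lower in every SCC library, and the other markers overlapped. PTPRC had 53 counts in SCC replicate 1, beside 5 and 15 in SCC replicates 2 and 3.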

How the data were processed

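Gene counts and FPKM values were used as the authors deposited them, in tables of 6 libraries (3 SCC, 3 RCC); per the submitters' processing notes HISAT2 2.0.5 and featureCounts 1.5.0-p3 were used, while their options, strand setting and genome build are not given in the sources used here. The deposited FPKM values equal count over length times a constant per library. All 58735 gene identifiers and positions match GENCODE 29 (GRCh38), from which exon overlap and GC content were taken.

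From the counts, edgeR 4.0.16 (R 4.3.3) was run on genes kept by filterByExpr with a minimum count of 10, TMM scaling and group as the only term; calls needed a Benjamini-Hochberg adjusted p under 0.05 over all tested genes. SE is the log2 fold change over the square root of F. Isozyme shares were compared by exact permutation, and the share of all counts was given without a p although one had been planned. The fit was tested on simulated data with 200 changed genes. Replicate numbers were not used to pair libraries: same-numbered SCC and RCC libraries correlated at -0.018, 0.042 and -0.099. Alternatives included DESeq2 1.42.0 and limma 3.58.1, other scalings and filters, and leaving out each library. The genes and lists were chosen with earlier results of these data known. All 31 genes are named; of the other lists, every called gene and at least the 2 with the smallest p are named, except 1 gene that is not reported here. Promoter windows are from RefSeq (GRCh38.p14), 3 genes having none there, and no window that a GENCODE UTR covers in part is printed. Pseudogene rows named after 13 of the genes held at most 1.04% of a gene's counts.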

Additional observations from a re-analysis of the deposited data

How the results depend on the processing

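The count of glycolysis and lactate genes called was 0 higher and 0 lower in the analysis reported, and stayed so under RLE and upper-quartile scaling, a stricter filter, a gene length offset, thinning, added pseudogene counts, glmTreat and the 3 limma fits on log2(FPKM + pseudocount). SLC16A1 was not tested with the stricter filter or after thinning (30 genes), nor SLC16A1 and TIGAR in the 2 filtered limma fits (29 genes). Over all genes, 268 were called higher and 60 lower in the analysis reported. It was 1 higher (PFKL) under DESeq2 (394 and 120 of all genes) and 2 higher (SLC2A3, SLC16A1) and 1 lower (LDHB) with a GC offset (546 and 297), which was chosen after seeing the data. Without a filter on low counts it was 3 higher (SLC2A1, PFKL, SLC16A1) and 1 lower (LDHB), with 995 and 315 of all genes. With the replicate number as a block it was 0 higher and 1 lower (LDHB, -0.77; 350 and 106 of all genes), also with a gene length offset (1 lower; 281 and 80), and 3 higher and 1 lower with the block and the GC offset (SLC2A1, SLC2A3, SLC16A1; LDHB), with 695 and 545 of all genes. Leaving out 1 library gave 0 to 4 higher and 0 to 1 lower, with 4 without SCC replicate 1 (642 and 343 of all genes) and 2 (PFKL, ALDOC) without SCC replicate 2 (585 and 261). The GC alternatives planned from a genome sequence were not run as written, since no genome was used here; transcripts gave the GC content. The cause of these shifts was not tested.

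Of 676 values of single genes under 22 alternatives, 621 kept direction and side of the threshold, 22 passed it newly and 33 changed sign, all of them from log2 fold changes not called. With the GC offset, and with the block and that offset, GPI was -0.053 and -0.052, PFKP -0.0306 and -0.0306, GAPDH -0.0304 and -0.0303, SLC16A3 -0.0698 and -0.0681, PDK1 0.0881 and 0.0892, and PDK3 0.0645 and 0.0663. HK2 was -0.0021 with the length offset, -0.0024 with block and length offset, and -0.0033 with upper-quartile scaling, and PFKFB2 was -0.0226 after thinning. Leaving out 1 library at a time, the log2 fold change spanned -0.0112 to 0.0301 for HK2, -0.0296 to 0.0997 for GPI, -0.0317 to 0.0899 for PFKFB2, -0.0714 to 0.0038 for TPI1, -0.0061 to 0.0775 for PGK1, -0.0485 to 0.119 for BPGM, -0.128 to 0.0047 for LDHA, -0.0811 to 0.0331 for PDK1 and -0.0649 to 0.0606 for PDK3. The difference in isozyme share, in percentage points, likewise spanned -1.19 to 0.326 for SLC2A1, -0.399 to 0.231 for PFKP, -0.0050 to 1.09 for PFKFB4, -1.69 to 1.86 for ALDOC and -0.0626 to 0.211 for ENO2, whose groups overlapped. Shares of LDHA, HK2 and SLC16A3 kept their direction without any 1 library.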
